A study of Homo sapiens with 8 samples.

Results

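The genes described here are 10 regulators of the step from G1 into S phase of the cell cycle: the cyclins CCND1, CCND3, CCNE1 and CCNE2, the cyclin-dependent kinases CDK2 and CDK4, the phosphatase CDC25A and the kinase inhibitors CDKN1A, CDKN1B and CDKN2C. They were listed by name, with earlier results of these data known. Every probe set that the array's annotation ties to one of them alone was taken. This gave 17 probe sets of 9 genes, out of 41091 probe sets with 1 gene. The annotation used here ties no probe set to CDKN2C alone, so that gene was not analysed here. After a filter on dim probe sets, the 9 genes were tested among 13584 genes, each on its brightest probe set. On those 9 probe sets the signal lay above the filter (log2 4.80) on every array.

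In G1, cyclin D binds CDK4 or its relative CDK6, and the complex begins to phosphorylate the retinoblastoma protein, which holds back the E2F transcription factors. Cyclin E with CDK2 completes that phosphorylation and starts DNA replication, and the genes of both E cyclins and of CDC25A are themselves E2F targets. CDC25A removes inhibitory phosphates from CDK2, whereas p21 (CDKN1A) and p27 (CDKN1B) bind cyclin-kinase complexes and block them. In lung adenocarcinoma cells these genes carry signals from growth factors, nutrients and stress to the decision to divide.

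The cells were A549, an established human lung adenocarcinoma line, transfected with DharmaFECT 1, a lipid reagent, and small interfering RNA (siRNA) that was either a control or directed at SRC-1. SRC-1 is a coactivator of nuclear receptors and the product of NCOA1. All cells spent 36 h in medium with 10% dialyzed serum, in which small molecules are depleted, and then received DMEM with or without glucose, again with dialyzed serum. The 4 groups were siControl without glucose, siControl with glucose, siSRC-1 without glucose and siSRC-1 with glucose, each with 2 Affymetrix arrays. The design asks how loss of SRC-1 changes expression in each medium, and the labels do not state the time in the last medium. The arrays of a group are labelled biological replicates, but nothing says how the cultures were kept apart, so p-values measure only the spread between these arrays.

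The arrays were alike in general. Their median signals lay between 4.97 and 5.01, and the 2 arrays of a group correlated at 0.997 to 0.998 across genes. NCOA1 was 8.78-fold lower with SRC-1 siRNA without glucose and 9.10-fold lower with glucose (adjusted p = 1.65e-05 and 1.44e-05, limma). All 10 listed markers of the A549 line were at or above the 90.3rd percentile of probe sets, and markers of blood cells, endothelium and fibroblasts stood between the 10.4th (PTPRC) and the 76.6th (COL1A1). The difference between the 3' and 5' probe sets of beta-actin, a sign of RNA integrity, was 0.41 to 0.54 (log2) on the 4 arrays without glucose and 0.51 to 0.64 on the 4 with glucose. For GAPDH it was 0.12 to 0.14 and 0.14 to 0.17. For beta-actin the arrays numbered 1 (control and SRC-1 siRNA in turn) read 0.41 and 0.45 without and 0.64 and 0.62 with glucose. Those numbered 2 read 0.52 and 0.54 without and 0.52 and 0.51 with glucose. The part of these shifts in the glucose results was not tested.

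Promoter sequences show what lies next to the start of 3 of the genes: CDC25A and CCNE1, which were higher with glucose, and CDKN1B, which was lower with control siRNA. Each is the 250 bases before the RefSeq start on GRCh38.p14, read in the direction of the gene. It spans chr3:48188418-48188667 (minus strand) for CDC25A, chr19:29811741-29811990 (plus strand) for CCNE1 and chr12:12717118-12717367 (plus strand) for CDKN1B. Capitals mark matches to an E2F motif (TTTCCCGC, TTTCGCGC, TTTGCCGC or TTTGGCGC) or to a CCAAT box on either strand.
CDC25A: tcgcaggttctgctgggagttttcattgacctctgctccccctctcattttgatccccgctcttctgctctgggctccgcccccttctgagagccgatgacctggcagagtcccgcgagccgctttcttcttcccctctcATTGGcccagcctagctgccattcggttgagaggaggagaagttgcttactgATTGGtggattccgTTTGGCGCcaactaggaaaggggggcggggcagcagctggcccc
CCNE1: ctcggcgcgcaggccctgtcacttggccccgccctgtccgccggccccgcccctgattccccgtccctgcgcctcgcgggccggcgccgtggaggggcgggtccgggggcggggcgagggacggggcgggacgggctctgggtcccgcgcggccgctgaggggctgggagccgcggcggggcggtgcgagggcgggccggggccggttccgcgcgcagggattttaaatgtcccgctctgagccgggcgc
CDKN1B: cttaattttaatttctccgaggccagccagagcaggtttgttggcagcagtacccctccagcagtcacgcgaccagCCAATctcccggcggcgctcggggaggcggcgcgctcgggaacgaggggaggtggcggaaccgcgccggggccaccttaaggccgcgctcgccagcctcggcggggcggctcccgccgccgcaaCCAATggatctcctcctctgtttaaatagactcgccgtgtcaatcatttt

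In the CDC25A promoter, TTTGGCGC begins at position -44 from the start, and CCAAT boxes on the other strand begin at -58 and -110. The CDKN1B promoter holds CCAAT boxes at -174 and -50, and the printed CCNE1 promoter holds none of the motifs searched. RefSeq windows from 250 bases before to 50 after a start were at hand for 6 of the 9 measured genes, 8 windows in all, of which CCND3 gave 3. Of these 8, 1 held an E2F match and 4 held a CCAAT box, against 3.31% and 34.6% of all 35116 windows. None held TTTGAA, the element called CHR, or TGATGNAA, the core of sites bound by the stress factor ATF4, which occur in 15.2% and 3.62% of windows. No E2F match overlapped a CCAAT box. A match of letters is a description and not a bound site.

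Most of these genes differed between the media. With control siRNA, 6 of the 9 were higher with glucose (CCND1, CCND3, CCNE1, CCNE2, CDK2 and CDC25A), 2 were lower (CDKN1A and CDKN1B), and CDK4 was not called. The threshold was an adjusted p of 0.05 (limma, Benjamini-Hochberg over all 13584 genes). Of all genes tested, 45.2% were called, 23.6% higher and 21.6% lower. The median log2 difference of the 9 genes was 0.99, and that of all genes was 0.00088. With SRC-1 siRNA, 6 of the 9 were higher and 1 was lower, where 44.7% of all genes were called (24.6% higher and 20% lower), and the medians were 1.21 and 0.0059. The 2 glucose comparisons have no array in common. Where arrays of the 2 media are said below not to overlap, the share of all genes that part this way was not counted. Since RNA came from whole cultures, more cells in a phase of the cycle and more mRNA per cell cannot be told apart.

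**Figure D1:**
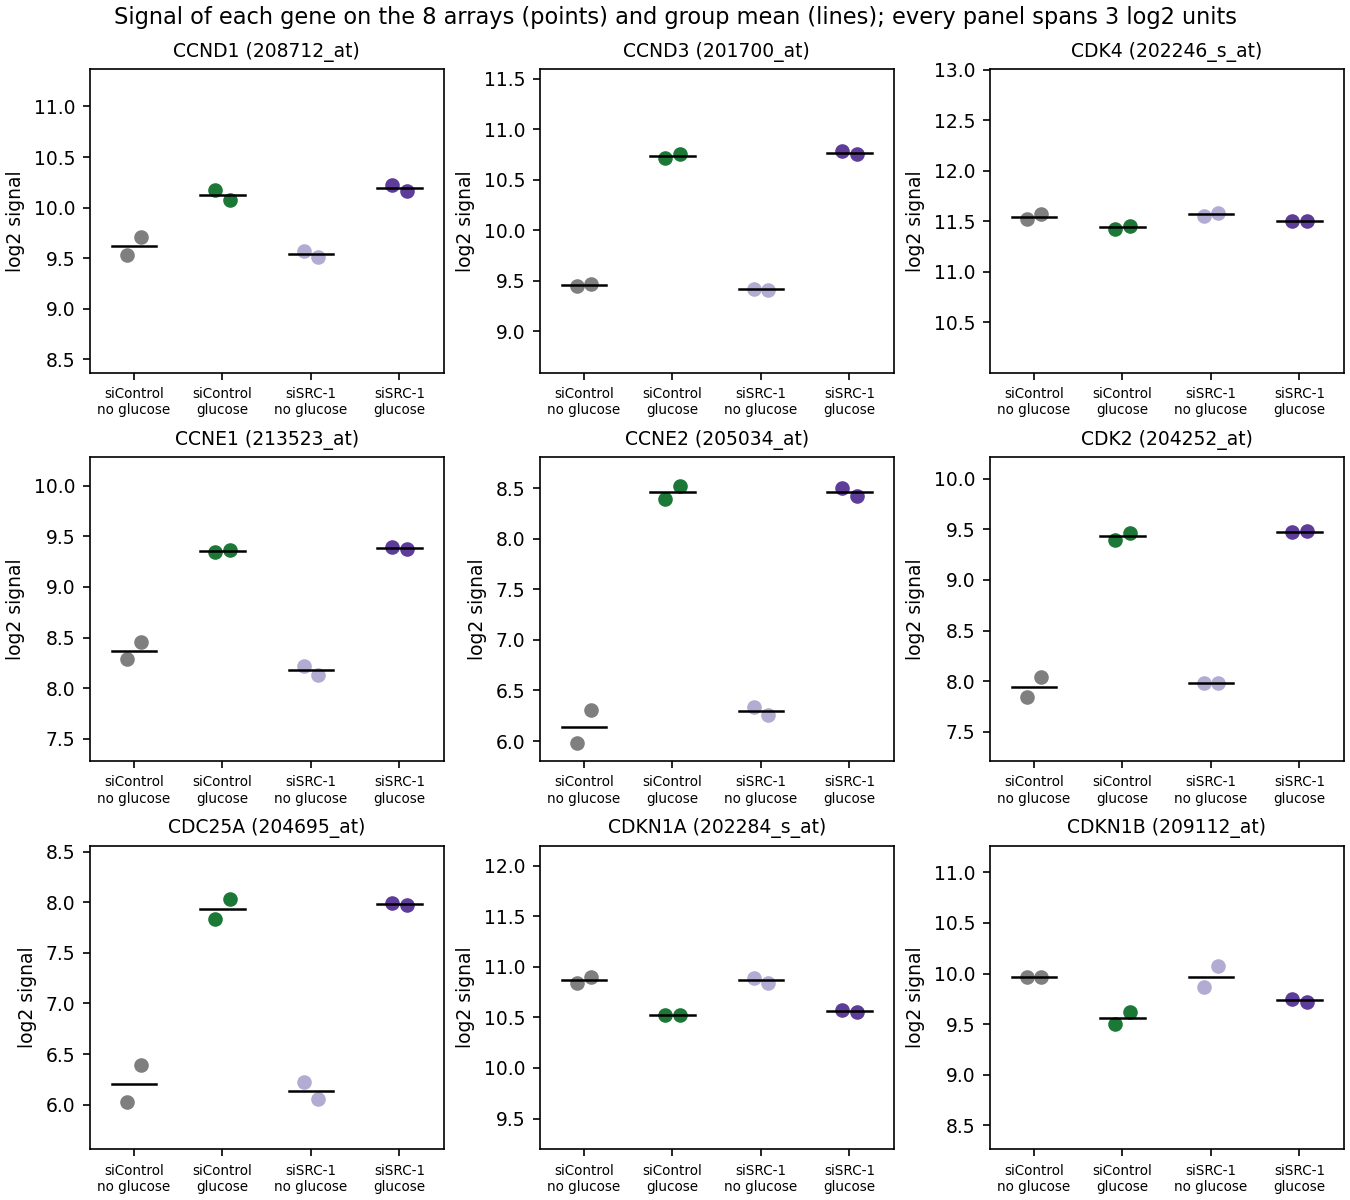
Log2 signal of the 9 genes (1 panel each, brightest probe set, vertical axis) on each of the 8 arrays in the 4 groups (horizontal axis); points are arrays, lines are means of 2 arrays, and every panel spans 3 log2 units. The arrays with glucose lie above those without for CCND1, CCND3, CCNE1, CCNE2, CDK2 and CDC25A and below them for CDK4, CDKN1A and CDKN1B. The share of all genes that part in this way was not counted.

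The E cyclins, which drive S phase entry with CDK2, showed the largest rise of the set in CCNE2. In control cells its signal was 5.98 and 6.30 (log2) without glucose and 8.39 and 8.52 with glucose. With SRC-1 siRNA it was 6.33 and 6.26 without glucose and 8.51 and 8.43 with it. The 4 arrays with glucose were thus far above the 4 without, and within each medium the siRNA groups overlapped. The difference was 2.31 ± 0.11 (log2, SE, n = 2 per group), a 4.98-fold rise, with control siRNA (adjusted p = 2.28e-06, limma). It was 2.17 ± 0.11, 4.50-fold, with SRC-1 siRNA (adjusted p = 3.24e-06). No detection call was at hand, so whether the signals without glucose stand above background is not known, and these folds may understate the change. The probe set of CDKN2A, a gene known to be deleted in A549, read 5.82 to 6.08, near the CCNE2 signals without glucose.

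CCNE1, the other E cyclin, rose less. Its signal was 8.28 and 8.46 without and 9.35 and 9.37 with glucose in control cells. With SRC-1 siRNA it was 8.22 and 8.13 without and 9.40 and 9.38 with glucose. No array with glucose overlapped one without. The rise was 0.99 ± 0.077 (1.98-fold, adjusted p = 2.76e-05, limma) with control siRNA and 1.21 ± 0.077 (2.32-fold, adjusted p = 9.88e-06) with SRC-1 siRNA. To ask whether the E cyclins changed unequally, the CCNE2 signal minus the CCNE1 signal was taken on each array. It lay between -2.30 and -1.87 without glucose and between -0.95 and -0.85 with glucose. The CCNE2 probe set thus rose 2.21-fold more (1.14 on the log2 scale). This pair of genes, and the pairs of D cyclins and of kinases below, were chosen after their values were seen. These differences are thus descriptions with no test. Probe sets of 1 gene also differed (with control siRNA 1.49 and 1.12 for CDK2, 0.50 and 0.33 for CCND1). How far unequal probe response enters the differences between genes was not tested.

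The D cyclins, which answer to growth signals, rose as well. The CCND3 signal was 9.45 and 9.47 without and 10.71 and 10.76 with glucose in control cells. In SRC-1 siRNA cells it was 9.42 and 9.41 without and 10.78 and 10.76 with glucose. The replicate arrays were almost the same and the media far apart. CCND3 rose by 1.28 ± 0.061 (2.42-fold, adjusted p = 2.84e-06, limma) with control siRNA and by 1.35 ± 0.061 (2.55-fold, adjusted p = 2.07e-06) with SRC-1 siRNA.

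CCND1, the D cyclin best known as an oncogene in solid tumours, changed less. Its signal was 9.53 and 9.71 without and 10.17 and 10.07 with glucose in control cells. With SRC-1 siRNA it was 9.57 and 9.51 without and 10.22 and 10.16 with glucose. The media did not overlap, though the 2 control arrays without glucose stood further apart than the other pairs. In that group replicate 2 also read above replicate 1 for CCNE1, CCNE2, CDK2 and CDC25A, and slightly for CCND3. These genes thus share deviations of an array. The rise was 0.50 ± 0.081 (1.42-fold, adjusted p = 0.00121, limma) with control siRNA and 0.65 ± 0.081 (1.57-fold, adjusted p = 3.15e-04) with SRC-1 siRNA. CCND3 minus CCND1 on the same array moved from between -0.25 and -0.074 without glucose to between 0.54 and 0.69 with it. The CCND3 probe set thus rose 1.67-fold more than the CCND1 probe set over the 8 arrays.

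The kinases parted. CDK2, the partner of cyclin E, was at 7.85 and 8.05 without and 9.40 and 9.47 with glucose in control cells. After SRC-1 siRNA its signal was 7.98 and 7.98 without and 9.47 and 9.48 with glucose. Arrays with glucose stood well clear of those without. CDK2 rose by 1.49 ± 0.079 (2.80-fold, adjusted p = 4.40e-06, limma) with control siRNA and by 1.5 ± 0.079 (2.82-fold, adjusted p = 4.20e-06) with SRC-1 siRNA.

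CDK4, the partner of cyclin D, stayed within a narrow range. Its signal was 11.52 and 11.57 without and 11.42 and 11.46 with glucose in control cells. In SRC-1 siRNA cells it was 11.55 and 11.58 without and 11.50 and 11.50 with glucose. The 4 arrays with glucose were all slightly below the 4 without, but the difference was not called in either arm. It was -0.11 (95% interval -0.25 to 0.035, adjusted p = 0.201, limma) with control siRNA and -0.067 (-0.21 to 0.075, adjusted p = 0.426) with SRC-1 siRNA. CDK2 minus CDK4 on the same array went from between -3.67 and -3.53 to between -2.03 and -1.99, a 2.99-fold unequal change of these probe sets.

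CDC25A, the phosphatase that activates CDK2, had the second largest rise of the 9 genes in either arm. Its signal was 6.03 and 6.39 without and 7.83 and 8.03 with glucose in control cells. Under SRC-1 siRNA it was 6.22 and 6.05 without and 8.0 and 7.97 with glucose. The media were widely separated and the siRNA groups overlapped. The rise was 1.72 ± 0.12 (3.30-fold, adjusted p = 1.73e-05, limma) with control siRNA and 1.84 ± 0.12 (3.59-fold, adjusted p = 1.32e-05) with SRC-1 siRNA. The limit given for CCNE2 on dim signals holds here too.

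CDKN1A and CDKN1B, the measured inhibitors of the set, read lower with glucose, by smaller amounts. CDKN1B was not called with SRC-1 siRNA, and other inhibitors, given below, were not called lower. CDKN1A, which encodes p21 and is a classical target of p53, was at 10.84 and 10.90 without and 10.52 and 10.53 with glucose in control cells. In SRC-1 siRNA cells its signal was 10.89 and 10.85 without and 10.58 and 10.55 with glucose. All 4 arrays with glucose lay below all 4 without. The difference was -0.35 ± 0.062 (1.27-fold lower, adjusted p = 0.00210, limma) with control siRNA and -0.30 ± 0.062 (1.23-fold lower, adjusted p = 0.00434) with SRC-1 siRNA.

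CDKN1B, which encodes p27, was at 9.97 and 9.97 without and 9.50 and 9.62 with glucose in control cells. In SRC-1 siRNA cells its signal was 9.86 and 10.08 without and 9.75 and 9.72 with glucose. The media did not overlap, but the 2 SRC-1 siRNA arrays without glucose stood apart from each other (SD 0.15). The difference was -0.41 ± 0.085 (1.33-fold lower, adjusted p = 0.00450, limma) with control siRNA. With SRC-1 siRNA it was -0.23 ± 0.085 and missed the threshold (adjusted p = 0.0526), and without siSRC-1 without glucose replicate 1 it was -0.34 and passed (adjusted p = 0.0213). Without the other array of that group it was -0.13 (adjusted p = 0.319). The difference between the arms was 0.17 (95% interval -0.10 to 0.45) and was not called (adjusted p = 0.999), so the arms are not shown to differ.

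**Figure D2:**
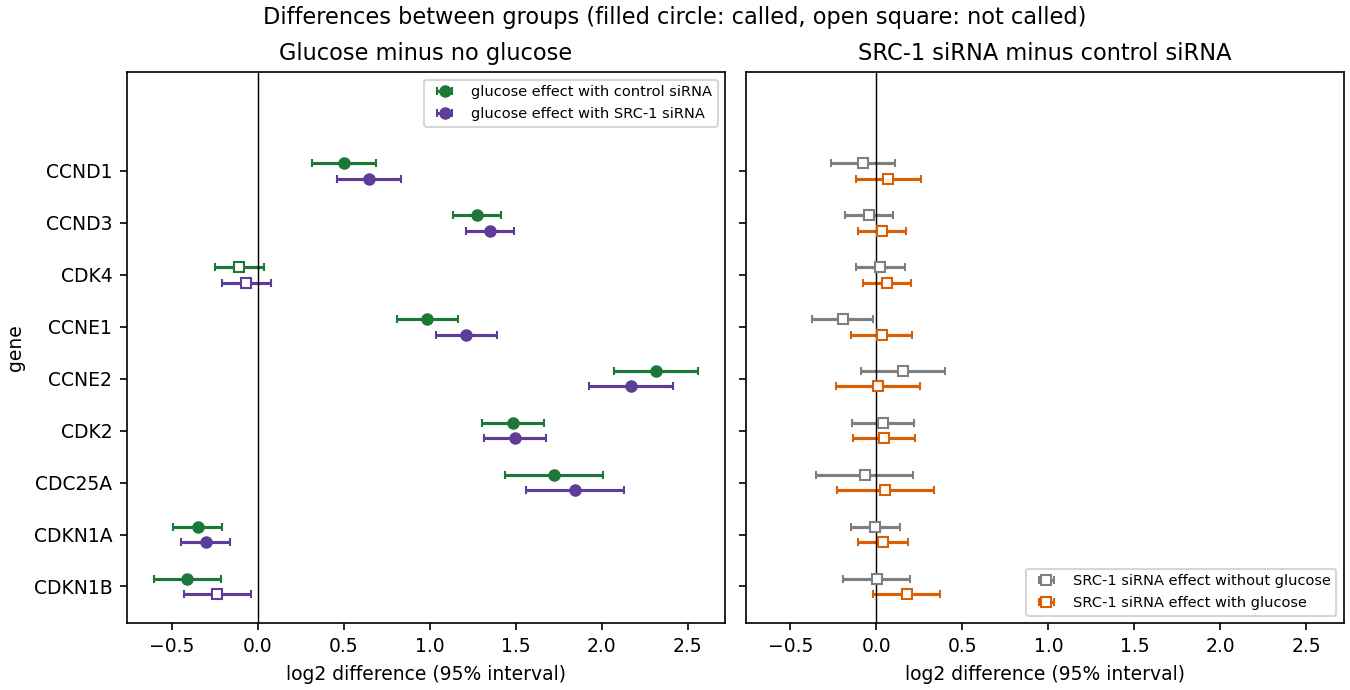
Log2 differences between groups with 95% intervals (horizontal axis) for the 9 genes (vertical axis): glucose minus no glucose in the left panel and SRC-1 siRNA minus control siRNA in the right panel. Glucose differences reach from -0.41 (CDKN1B) to 2.31 (CCNE2), whereas the SRC-1 siRNA differences lie between -0.20 and 0.18 and none is called.

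5 further probe sets of these genes passed the filter, and only those of CCND1 and CDK2 had every group mean above it. In the fit of all 24655 probe sets above the filter, 42.8% were called with control siRNA and 42.1% with SRC-1 siRNA. The second CCND1 probe set rose by 0.33 ± 0.072 with control siRNA and by 0.36 ± 0.072 with SRC-1 siRNA (adjusted p = 0.00624 and 0.00392, limma). The second CDK2 probe set rose by 1.12 ± 0.15 and 1.25 ± 0.15 (adjusted p = 4.39e-04 and 2.52e-04). Without glucose it read 5.48 and 5.94 with control siRNA and 5.87 and 5.72 with SRC-1 siRNA. The limit given for CCNE2 on dim signals holds for it too.

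The second CCNE2 probe set and both further CDC25A probe sets had group means below the filter without glucose and passed only through their arrays with glucose, so their values are given as a description and support no rise. The second CCNE2 probe set read 3.94 and 4.34 without and 5.81 and 6.02 with glucose in control cells. Of the CDC25A probe sets, the one with the suffix _a_at read 4.24 and 4.73 without and 6.16 and 6.19 with glucose. The one with the suffix _s_at read 4.76 and 4.72 without and 5.32 and 5.16 with glucose, a smaller step. CCNE1, CCND3 and CDK2 each had a probe set below the filter (mean signals 4.18, 4.41 and 4.25), on which glucose differences lay between -0.13 and 0.26 and no call was made. CDK4, CDKN1A and CDKN1B had 1 probe set each.

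**Figure D3:**
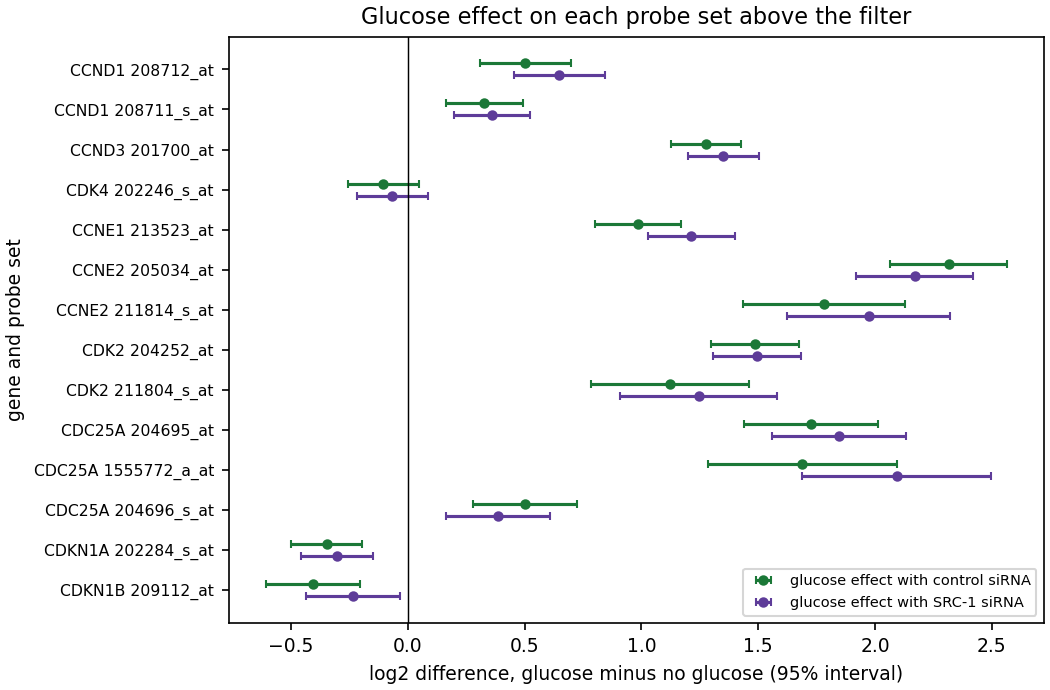
Log2 difference between arrays with and without glucose, with its 95% interval (horizontal axis), for each of the 14 probe sets above the filter (vertical axis) and each siRNA. The second CCNE2 and the _a_at and _s_at CDC25A probe sets passed the filter only through arrays with glucose; among CDC25A probe sets the _s_at one shows the smallest difference.

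Under SRC-1 knockdown no difference in the 9 genes was larger than the error allows to call. Without glucose the differences between SRC-1 siRNA and control siRNA ran from -0.20 (CCNE1) to 0.15 (CCNE2). With glucose they ran from 0.0083 (CCNE2) to 0.18 (CDKN1B). None of the 9 was called in either medium by limma. Of all genes 0.0221% and 0.00736% were called, and of probe sets 0.0243% and 0.0162%. An unadjusted p below 0.05 was seen for 434 and 781 of all 13584 genes and for 1 and 0 of the 9. The 1 was CCNE1 without glucose (-0.20, 95% interval -0.37 to -0.020, adjusted p = 0.999). The intervals of all 9 genes lay between -0.37 and 0.40 without glucose and between -0.24 and 0.37 with glucose (log2).

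Averaged over both media, the 9 differences lay between -0.083 (CCNE1) and 0.090 (CDKN1B). By limma 0 of the 9 were called and 0 had an unadjusted p below 0.05. Of all 13584 genes 0.0294% were called and 674 had an unadjusted p below 0.05, and 0.0284% of probe sets were called. No difference between the glucose effects of the siRNAs was called by the interaction test. Its values lay between -0.15 (CCNE2) and 0.23 (CCNE1). Of the 9, 0 were called and 0 had an unadjusted p below 0.05. Of all 13584 genes, 0% were called and 465 had an unadjusted p below 0.05. The second CCNE2 probe set, singled out after its values were seen, was at 5.81 and 6.02 with control siRNA and 6.19 and 6.42 with SRC-1 siRNA in cells with glucose. These pairs did not overlap, but the difference of 0.39 (95% interval 0.044 to 0.74) was not called (adjusted p = 0.847), and the brighter CCNE2 probe set gave 0.0083.

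The remaining genes of the pathway were taken from lists of textbook membership, drawn up with earlier results of these data known. The counts are thus descriptions. They stand against 45.2% of all genes called with control siRNA (23.6% higher, 21.6% lower) and 44.7% with SRC-1 siRNA (24.6% higher, 20% lower). Of 16 tested cyclins, kinases and regulators outside the set, 10 were higher with glucose and 2 lower in control cells (75% called, median 0.38), and 8 and 3 with SRC-1 siRNA (68.8% called, median 0.28). The 4 with the smallest p, all higher, were CCNA2, the S phase cyclin (1.02 ± 0.097), the CDK inhibitory kinases WEE1 (0.70 ± 0.074) and PKMYT1 (0.66 ± 0.073) and the phosphatase CDC25B (0.58 ± 0.065) with control siRNA. The 2 lower genes, CDK7 (-0.65 ± 0.081) and CCNH (-0.46 ± 0.062), encode the kinase and cyclin of the CDK-activating kinase, and MNAT1, which assembles with them, was not called (-0.15 ± 0.066). With SRC-1 siRNA MNAT1 was called lower too (-0.19 ± 0.066), a difference between arms that was not called. CDK6, the other partner of cyclin D, was called higher with control siRNA (0.40 ± 0.092) and not with SRC-1 siRNA (0.20 ± 0.092), a difference that was not called. The inhibitor CDKN2D is counted among the higher genes in both arms. Without glucose it read 4.52 and 4.80 with control siRNA and 4.84 and 4.40 with SRC-1 siRNA. Those group means lay below the filter, so it passed only through arrays with glucose and supports no rise. The inhibitors CDKN1C and CDKN2A were not called in either arm.

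Among 18 pocket proteins, E2F factors and their partners, 10 were higher and 2 lower with control siRNA (66.7% called, median 0.34) and 11 and 2 with SRC-1 siRNA (72.2% called, median 0.51). E2F8 and E2F2 rose by 2.28 ± 0.090 and 2.04 ± 0.16 with control siRNA and by 2.23 ± 0.090 and 1.36 ± 0.16 with SRC-1 siRNA. No difference between the arms was called. Without glucose E2F2 read 5.81 and 5.68 with control siRNA and 5.88 and 6.38 with SRC-1 siRNA. The limit given for CCNE2 on dim signals holds for E2F2 too. With control siRNA TFDP1 rose by 0.80 ± 0.079, and LIN37, a part of the DREAM repressor complex, fell by 0.76. RB1 itself was 0.35 ± 0.10 higher. Of 29 S phase genes driven by E2F, 27 were higher and 0 lower in both arms (93.1% called, medians 1.30 and 1.38), with MCM10 (1.96 ± 0.073) and MCM6 (1.84 ± 0.076) at the smallest p in control cells.

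Genes of protein turnover and of the p53 pathway were mixed. Of 24 ubiquitin ligase parts and deubiquitinases that act on G1 regulators, 7 were higher and 2 lower with control siRNA (37.5% called) and 9 and 2 with SRC-1 siRNA (45.8% called). Of all genes 45.2% and 44.7% were called, so this list as a whole did not stand out. SKP2, the F-box protein that marks p27 for degradation, rose by 1.9 ± 0.080, and DTL, which targets p21, by 1.76 ± 0.094. FBXO4, for which cyclin D is a reported substrate, fell by 0.69, and CUL1 rose by 0.46 ± 0.064.

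Of 26 p53 targets other than CDKN1A, 9 were higher and 8 lower with control siRNA (65.4% called, median -0.051) and 9 and 10 with SRC-1 siRNA (73.1% called, median -0.071). GADD45A (-2.19 ± 0.074) and SESN2 (-1.53 ± 0.096), which stress factors other than p53 also induce, had the smallest p. TNFRSF10B (-0.71 ± 0.062) and BTG1 (-0.78 ± 0.075) followed. MDM2, the p53 ubiquitin ligase, differed by -0.13 ± 0.096 and was not called. Under SRC-1 siRNA no gene of these 5 lists was called in either medium (limma). With 113 genes tested, 4 without and 3 with glucose had an unadjusted p below 0.05, against 434 and 781 of all 13584 genes.

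**Figure D4:**
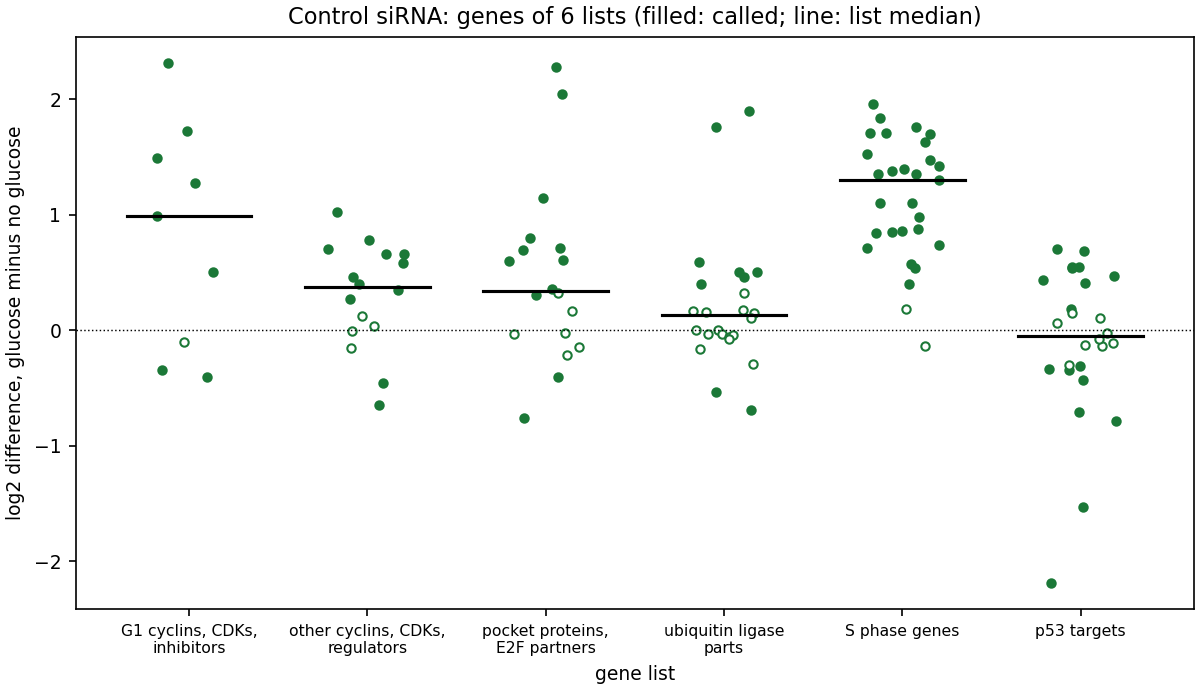
Log2 difference between arrays with and without glucose under control siRNA (vertical axis) for every tested gene of 6 lists (horizontal axis); filled points passed the threshold, open points did not, and lines are list medians. The median of the 9 G1 regulators (0.99) lies between those of the S phase genes (1.30) and of the other cyclins, kinases and regulators (0.38). Among those other regulators, CDKN2D passed the filter only through arrays with glucose.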

How the data were processed

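The data are the deposited table of 8 arrays, with 1 signal per probe set (54675 probe sets, values from 1.98 to 14.7), and the deposited values were treated as log2. No label states the base of the logarithm; it was taken as 2 because successive hybridization spikes differed by 1.87 to 2.06 units. Background correction, summarization and normalization are not given in the sources used here, and detection calls were not used, so folds that start at a dim signal may be compressed. RNA was column-purified and labelled by the Affymetrix procedure, per the labels' protocols.

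Probe sets were named by the supplied platform annotation, with symbols updated through Entrez identifiers, and 41091 had 1 gene; the 1801 with several genes and the unnamed rest were left out. The filter left out one-gene probe sets whose mean fell under their 40th percentile, and the brightest per gene was kept. All 8 arrays entered 1 limma fit (limma 3.58.1, R 4.3.3) with a mean per group, 4 residual and 4.35 prior degrees of freedom, two-sided moderated tests and Benjamini-Hochberg adjustment at 0.05. With 2 arrays a group, the smallest two-sided exact permutation p would be 0.333. The fit was also run on simulated data in which few genes changed. That setting is unlike the glucose comparisons, so it is no check of their results.

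The genes named are the listed ones with every probe set, up to 4 of each further list with the smallest p, and the 3 nearest profiles of a listed gene, for at most 3 of them. RB1, CDK6, CDK7, CCNH, MNAT1, MDM2, CDKN1C, CDKN2A and CDKN2D were added after their values were seen. The genes, lists and motifs were chosen with earlier results of these data known. Alternatives were quantile normalization, median centring, other filters, probe sets averaged per gene, no _s_at or _x_at probe sets, a trended prior, only the groups compared, a replicate block and each array left out. For the 3 within-array pairs, quantile normalization, a second probe set and each array left out were chosen after seeing the data.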

Additional observations from a re-analysis of the deposited data

How the results depend on the processing

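The members' glucose differences kept direction and call in 296 of 302 recomputations over 17 alternative settings. The other 6 all concerned CDKN1B with SRC-1 siRNA, which lay at an adjusted p of 0.0526 and was called lower with quantile normalization (0.0289), a filter at the 60th percentile (0.0302), the mean of probe sets (0.0455), a trended prior (0.0160), the replicate block (0.0493) and without siSRC-1 without glucose replicate 1 (0.0213); the cause was not tested. The count of genes called stayed between 7 and 8 with control siRNA and between 6 and 8 with SRC-1 siRNA, and the lower ends came from leaving out _s_at and _x_at probe sets, which removes CDK4 and CDKN1A. Across alternatives CCNE2 ranged from 2.05 to 2.48 with control siRNA, CDC25A from 1.30 to 1.9 and CCND1 from 0.41 to 0.59. The low ends for CCNE2 and CDC25A came from averages with probe sets that passed the filter only through arrays with glucose. Those ends are no check. Only quantile normalization, median centring, averaged probe sets and leaving out an array of a compared group could change a glucose difference. The other settings could change only its adjusted p, so for them the direction was fixed. In 586 recomputations of SRC-1 siRNA and interaction differences, 0 were called. The labels give no pairing beyond a shared number, and deviations of same-numbered arrays correlated between -0.096 and 0.12. With the replicate block 8 of 9 genes were called in each arm. The within-array differences between CCND3 and CCND1 and between CDK2 and CDK4 kept their direction. With a second probe set of CCND1 and of CDK2, the latter dim without glucose, they were 0.97 and 1.27. That between CCNE2 and CCNE1 kept its direction with quantile normalization and with each array left out. With the second CCNE2 probe set it was 0.78, but that probe set passed the filter only through arrays with glucose and is no check. Precision is limited by the number of arrays, with a median SE of 0.0834 for a log2 difference.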

Other observations

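Profiles most like those of 3 of the genes were found by the mean absolute difference of log2 signals over the 8 arrays, after each gene was centred on its own mean. For CCNE2 the nearest were HSPA2 (0.0917), HELLS (0.114), a chromatin remodeller, and E2F8 (0.118). For CDC25A they were EGLN3 (0.0570), an oxygen sensor, and the replication genes FEN1 (0.0642) and MCM4 (0.0650). For CDKN1A they were MRPL45 (0.0182), SDF4 (0.0187) and FAM131A (0.0199). All of these correlated with their gene at 0.989 or more over the 8 arrays, which share the split between media, so the distance and not the correlation tells them apart.

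CDKN2A, which encodes the CDK4 inhibitor p16 and is known to be deleted in A549, gave signals between 5.82 and 6.08 on the 8 arrays, above the filter. Its glucose difference was 0.040 ± 0.10 with control siRNA and was not called.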
